A study of Arabidopsis thaliana with 18 samples.

Results

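These are 9 probe sets of the ATH1 array whose signal stood higher 4 h after salicylic acid (SA) than after its carrier, and whose genes have little place in the usual accounts of plant defence. They were taken by ID from a list of 9 among the 22810 probe sets of the series, and all 9 are among the 15212 that passed a filter on dim signal. The members were chosen by values of these same arrays, namely the SA minus silwet difference at 4 h and, for some of them, how far that difference departed from the later ones. Those values are given below as a description, without a test. The platform annotation names 8 of the 9. The other, 245035_at, has no entry in it and keeps its probe set ID here, and its assignment to AT2G26400, ARD3, is that of the list alone.

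All 18 arrays were of Arabidopsis thaliana of the natural accession Kin-0. Plants of 3 groups were given SA at 0.30 mM together with silwet at 0.02%, a surfactant that spreads a solution over leaves, and plants of the other 3 groups the same silwet without SA. Arrays were made at 4, 28 and 52 h after treatment, with 3 biological replicates in each of the 6 groups. All 6 groups had silwet, so the silwet plants of the same hour give the background of each SA value, and untreated plants were not used here. The labels give no tissue or plant age, and the values stand for 1 accession at 1 dose.

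SA is a hormone that plants make when a pathogen is recognised. In Arabidopsis it is sensed through NPR1 and its relatives, which act with TGA transcription factors on defence genes, while WRKY factors carry the response further. Treatment with SA itself is known to switch on a first wave of genes within hours, among them enzymes that modify and inactivate SA. Many genes of that wave encode proteins known only by family. The members here include enzymes, a lectin, an ATPase, proteins linked to transcription or of the zinc finger type, and proteins of no assigned role.

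Among the enzymes, 245035_at showed the largest 4 h difference of the 9. ARD3, the gene the list assigned to it, encodes an acireductone dioxygenase, an enzyme of the cycle that recovers methionine from the by-product of ethylene and polyamine synthesis. At 4 h its MAS5 signal, a linear intensity on arrays scaled to 1 level, was 198, 149.9 and 343 on silwet replicates 1, 2 and 3. On the SA arrays it was 3043, 3530.4 and 2879. Every SA array was far above every silwet array, and the SA replicates lay much closer together in proportion than the silwet ones. The means were 3151 ± 339 (SD, n = 3) after SA and 230.0 ± 100.3 after silwet, a 14.5-fold difference on the log2 scale of the fit (log2 difference 3.86, SE 0.36). In bulk plant material a change in RNA per cell and a change in the share of cells that hold the RNA cannot be told apart, here or for any value below. At 28 h the signal was 389, 211 and 406 after silwet and 267, 251 and 389 after SA. At 52 h it was 121, 257 and 219 after silwet and 280.5, 142 and 188 after SA. SA and silwet plants overlapped at both later times, and the lowest SA array of 4 h was 7.08 times the highest of the other 15 arrays.

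AT3G44190 (probe set 252671_at), of a family of oxidoreductases that bind FAD and NAD(P), had the smallest early difference and the tightest values. At 4 h the signal was 231, 215 and 211 after silwet and 623, 563 and 504 after SA. The 2 groups were well apart, with means of 219 ± 10.5 and 564 ± 59.4 (SD, n = 3), 2.57-fold higher after SA. The signal at 28 h was 219, 192 and 172 after silwet and 164, 168 and 181 after SA. At 52 h it was 193, 171 and 178 after silwet and 159, 181 and 159.8 after SA. The groups overlapped at each later time, with the SA mean a little under the silwet mean in both cases.

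AT3G28510 (256593_at) encodes an ATPase of the AAA type, a class of ring-forming motors that pull apart proteins or complexes. It was close to the limit of what the arrays could show except at 4 h after SA. After silwet at 4 h the signal was 14.2, 12.0 and 25.8, and only replicate 3 lay above the filter level, the 40th percentile of its own array, used here to call a value dim. After SA it was 141, 191 and 266, a mean of 199 ± 63.0 against 17.4 ± 7.43 (SD, n = 3). The fitted difference was 3.55 on the log2 scale (SE 0.72), the widest error of the 9. At 28 h the signal was 11.2, 13.3 and 45.3 after silwet, where replicates 1 and 2 were dim, and 13.8, 29.9 and 20.4 after SA, where replicate 1 was. At 52 h it was 4.80, 15.6 and 19.6 after silwet and 1.44, 3.88 and 12.5 after SA. All 3 SA arrays of 52 h were dim, so the fitted differences that use them are given below without their size being read.

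AT5G03350 (250942_at) encodes a legume lectin family protein, of a kind that binds sugars, and is described as inducible by SA. Its signal at 4 h was 388, 214 and 294 after silwet and 2167, 3102 and 2307 after SA. The lowest SA array was 5.58 times the highest of the other 15 arrays. By replicate number the ratio of SA to silwet was 5.58, 14.5 and 7.84. Replicate 2 gave the highest of these because it held both the highest SA and the lowest silwet array. At 28 h the signal was 333, 202 and 138 after silwet and 141, 110.2 and 322.5 after SA. At 52 h it was 201, 160.3 and 122 after silwet and 216, 97.5 and 208 after SA. The later groups overlapped widely, and SA replicate 3 of 28 h stood alone at well above the other 2 SA arrays of that time.

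AT4G32870 (253401_at) belongs to a family of polyketide cyclase and lipid transport proteins, small folds with a pocket for a hydrophobic molecule. At 4 h the signal was 94.2, 98.6 and 115 after silwet and 551, 520.2 and 412 after SA, a difference of 4.80-fold. The later values were 171, 57.5 and 83.0 after silwet and 106, 86.4 and 102 after SA at 28 h. At 52 h they were 52.9, 50.8 and 62.4 after silwet and 64.0, 36.6 and 64.7 after SA. No SA array of 52 h reached the lowest SA array of 28 h, and the 2 treatments overlapped at each of these times.

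Among the members with a link to transcription or a zinc finger, AT1G15790 (259489_at) is a relative of MED15, a subunit of the Mediator complex that joins transcription factors to RNA polymerase II. At 4 h its signal was 20.8, 19.0 and 30.2 after silwet and 112, 96.0 and 108 after SA, 4.60-fold higher. It was at or below the filter level on 1 array in each of 4 groups (silwet at 4, 28 and 52 h, and SA at 52 h), so its background is poorly measured. AT4G02220 (255508_at), which carries a MYND-type zinc finger, a fold known for contacts between proteins, had 75.0, 91.0 and 85.4 after silwet and 246, 279.5 and 265 after SA. Its ratios by replicate number were nearly alike, from 3.07 to 3.28, against 3.57 to 5.39 for AT1G15790. On the 12 later arrays AT1G15790 ranged from 17.0 to 55.4. AT4G02220 ranged from 54.6 to 80.5 on the same arrays. The highest later value of AT1G15790 was on silwet replicate 1 of 28 h, an array of plants that had no SA.

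Of the genes without an assigned role, AT3G29240 (257745_at) encodes a protein with a domain of unknown function. It had 617, 650.3 and 1187 after silwet at 4 h and 2783, 3838 and 3537 after SA, 4.30-fold higher. Silwet replicate 3 was far above the other silwet arrays, and the ratio of that replicate was the lowest of the 3 (2.98, against 4.51 and 5.90). AT5G44570 (249004_at) had 93.9, 170.5 and 229 after silwet and 893, 913 and 692 after SA, 5.36-fold higher. Its silwet values also differed widely between replicates, and the ratios by replicate number ran from 3.02 to 9.51. On the later arrays AT3G29240 lay between 295 and 676, and only SA replicate 3 of 28 h was above all but 1 of the silwet arrays of 4 h. AT5G44570 lay between 56.1 and 223, and none was above the highest silwet array of 4 h.

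**Figure D1:**
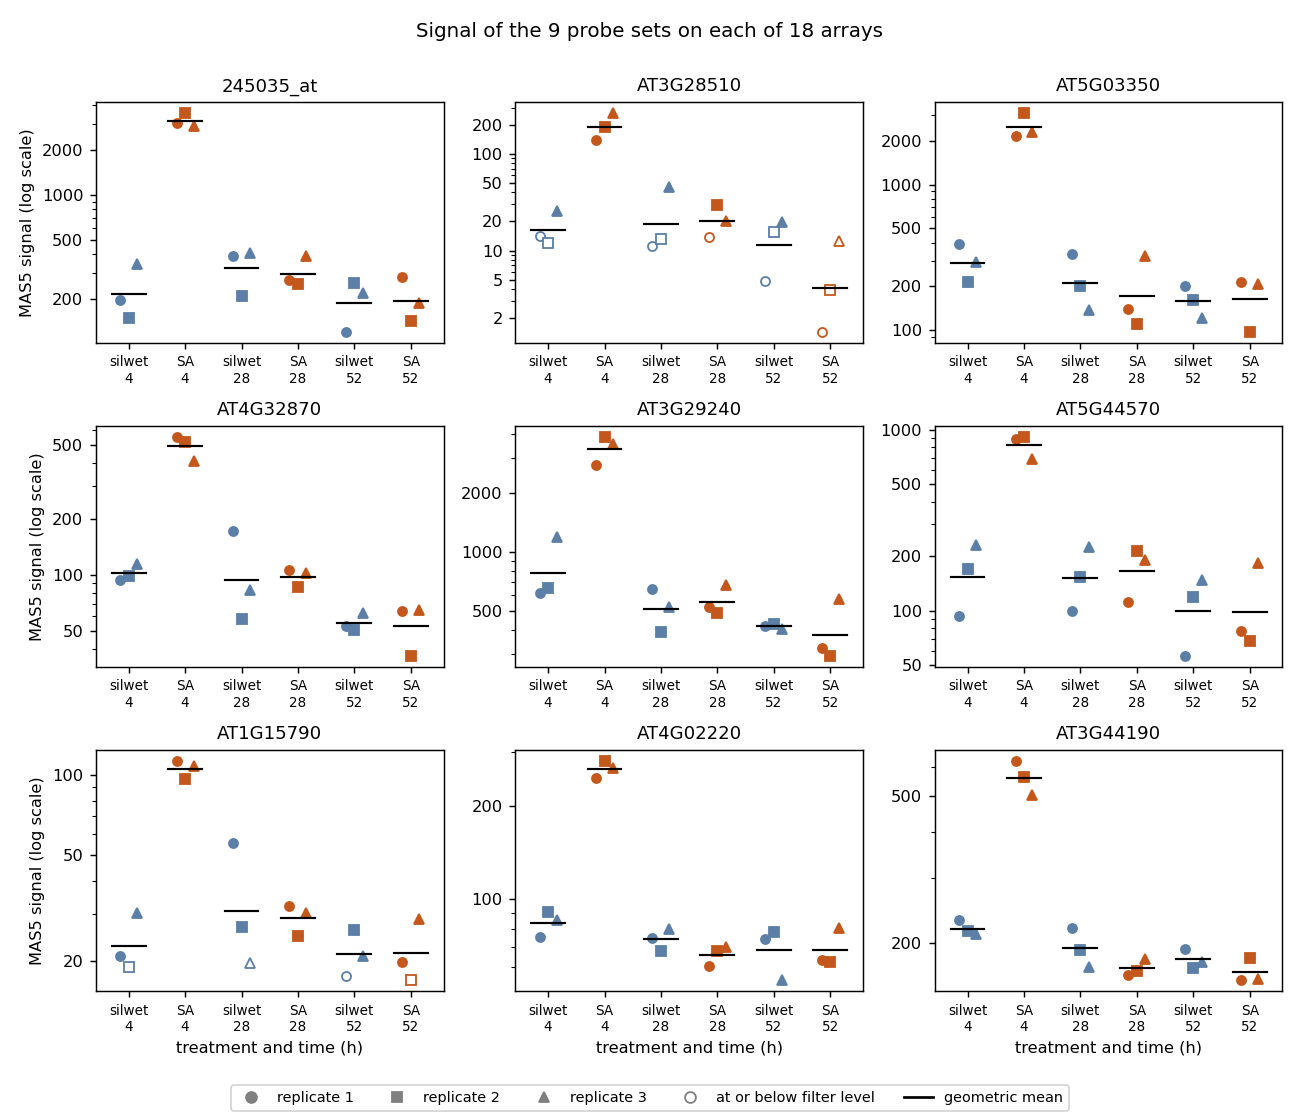
MAS5 signal (log axis, a scale for each panel) of the 9 probe sets on every array, by treatment and time in hours. Marker shapes are replicate numbers, open markers lie at or below the filter level and bars are geometric means of 3 arrays. In each panel the 3 SA arrays of 4 h stand above the other 15.

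For all 9 members the lowest SA array of 4 h was above the highest of the other 15 arrays, by 1.73 times in AT1G15790 up to 7.08 times in 245035_at. The same held for 4.65% of the probe sets tested. The SA minus silwet difference at 4 h ran from 1.36 (SE 0.16) in AT3G44190 to 3.86 in 245035_at on the log2 scale, with a median of 2.26 against -0.09 over all tested. Ranked by this difference among the 15212, the members stood at places 2 (245035_at), 3 (AT3G28510), 6 (AT5G03350), 12 (AT5G44570), 13 (AT4G32870), 14 (AT1G15790), 16 (AT3G29240), 50 (AT4G02220) and 101 (AT3G44190). The place of AT3G28510 rests on a silwet group with 2 of 3 arrays dim, and its difference ran from 3.16 to 3.70 over the settings that kept all 3 arrays of each group. All 9 were past the threshold used for calls (limma adjusted p under 0.05), where 0.473% of all probe sets were called higher, and nothing is read from this because the contrast chose them. The share called in either direction was 0.795%, or 121 probe sets, and 1011 with the replicate number as a block. Left to the 6 arrays of 4 h alone, the fit called 5 of the 9, and 11 of all probe sets. Leaving out silwet replicate 2 of 4 h left 6 of the 9 called, and 15 of all. Leaving out silwet replicate 1, SA replicate 2 or SA replicate 3 left 7 in each case, and 17, 25 and 20 of all. Nothing is read from these member counts either, since the same contrast chose the members. The fits with 1 array left out also have fewer arrays. AT3G28510 and AT5G44570 were the members lost most often, in 4 of those 6 fits each.

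At 28 h and 52 h no member's difference between SA and silwet plants was larger than the replicate error by the test used. These arrays did not enter the 4 h contrast, although some members had been chosen for a difference that includes them. No member was called by limma at 28 h (lowest adjusted p = 1.00) or at 52 h (lowest adjusted p = 1.00), 0 had an unadjusted p under 0.05, and 0% of all probe sets were called at each time. Over all probe sets 53 at 28 h and 146 at 52 h had an unadjusted p under 0.05, against 761 expected by chance among 15212, so the intervals below are given beside the calls. These counts were 141 and 642 with the replicate number as a block, so the shortfall depends in part on the model. With the replicate block 0 members were called at either time, the lowest unadjusted p being 0.00526 for AT3G28510 at 52 h (adjusted p = 0.954). At neither time did SA and silwet arrays stand apart without overlap in any of the 9, as they did in 2.26% of all probe sets at 28 h and 6.33% at 52 h, against 18.0% at 4 h.

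The 28 h differences ran from -0.30 in AT5G03350 to 0.13 in AT5G44570 on the log2 scale, 5 of 9 below 0 as against 47.2% of all. Their median was -0.09, against 0.01 over all tested. For 7 of the 9 the upper end of the 95% interval stayed under 1, a doubling. The exceptions were AT3G28510 (-1.42 to 1.64) and AT5G44570 (-0.83 to 1.10). The narrowest intervals belonged to AT3G44190 (-0.52 to 0.16) and AT4G02220 (-0.56 to 0.23).

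At 52 h the differences of the 8 members other than AT3G28510 lay between -0.14 in AT3G29240 and 0.05 in AT5G03350, and with AT3G28510 5 of 9 were below 0 as against 54.9% of all. AT3G28510 had a fitted value of -1.46 (95% interval -2.99 to 0.06), but its SA arrays were all dim there, as were 2 of its 3 silwet arrays, so its size is not read. With both late times averaged, a mean that some members were chosen by in part, the interval ended under 1 for the 8 members other than AT3G28510, the highest upper end being 0.74 in AT5G44570. For 245035_at the averaged difference was -0.04 (95% interval -0.58 to 0.51), beside 3.86 at 4 h. For AT4G32870 it was 0.01 (-0.47 to 0.49), beside 2.26. A late doubling lay above each of these 8 intervals, while smaller differences, up to their upper ends, lay within them. For AT3G28510 the average takes in the dim arrays of 52 h and is not read, and its 28 h interval reached past a doubling. The SA effect at 52 h did not pass the test of a difference from that at 28 h in any member (limma, lowest adjusted p = 1.00, 0% of all probe sets called, 83 of them and 0 members at an unadjusted p under 0.05). With the replicate block 265 probe sets had such a p, among them the dim AT3G28510 (0.0260), and 0 were called.

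**Figure D2:**
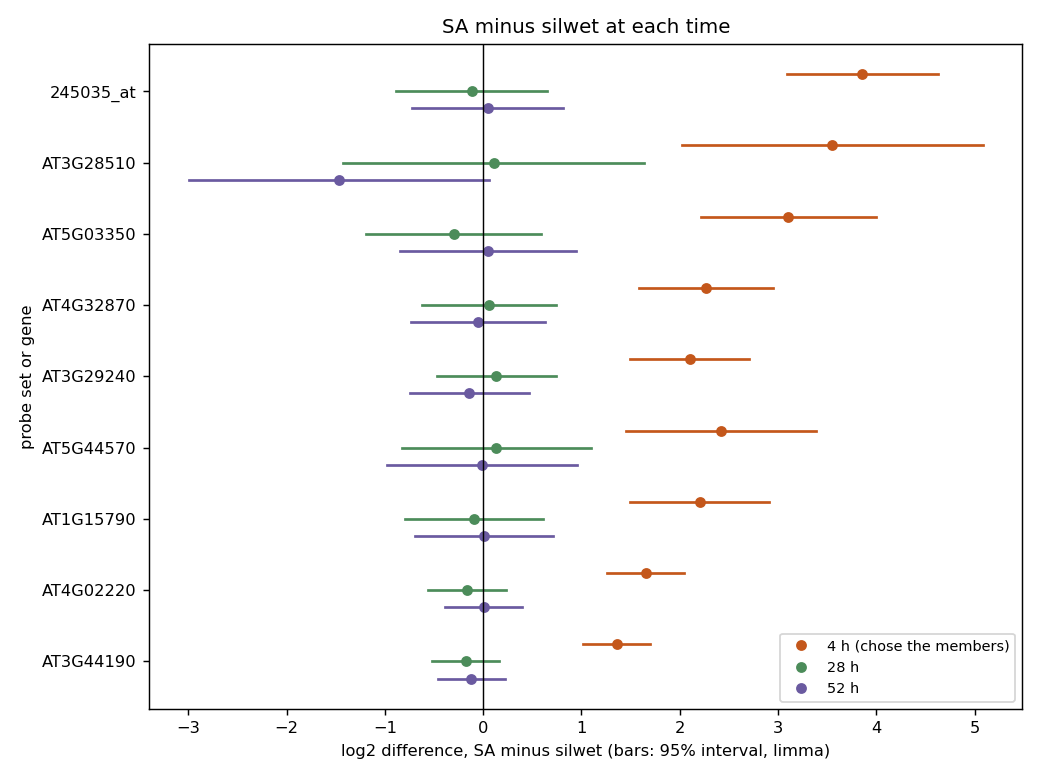
SA minus silwet (log2 difference, x axis) for each member at 4, 28 and 52 h, with 95% intervals from limma as bars. The 4 h values, which chose the members, run from 1.36 to 3.86, and every interval of 28 h and 52 h includes 0.

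The early effect minus the mean of the later ones, again only a description, was 3.89 in 245035_at and 3.23 in AT5G03350. The fitted value of AT3G28510, 4.23, rests on dim arrays in silwet at 4 h and in both groups of 52 h, and it was 3.50 with an offset. The difference was between 1.51 (AT3G44190) and 2.36 (AT5G44570) in the other 6. The late mean that it subtracts was -0.68 in AT3G28510 and between -0.15 (AT3G44190) and 0.06 (AT5G44570) in the other 8, so outside AT3G28510 it was close to the 4 h value itself.

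Between 28 h and 52 h no member passed the test in either treatment, and most of the fitted differences were below 0. This comparison uses no array of 4 h. In silwet plants the 52 h mean was under the 28 h mean for 9 of 9 members, with a median log2 difference of -0.54, while 44.3% of all probe sets were lower and their median was 0.04. In SA plants it was so for 8 of 9, with a median of -0.56, while 48.5% of all probe sets were lower and their median was 0.01. Over both treatments the mean was lower for 9 of 9 members, as for 45.2% of all probe sets. These counts and medians take in AT3G28510, which was dim on 2 of 3 silwet arrays at each time and on all 3 SA arrays of 52 h. The 2 treatments share no array here, but their same-numbered arrays deviated together (r from 0.61 to 0.82 across probe sets at 28 h and 0.20 to 0.36 at 52 h), so they are not independent of each other. AT4G02220 was the 1 member not lower after SA (0.05, SE 0.19).

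Of the members other than the dim AT3G28510, AT4G32870 had the lowest unadjusted p over both treatments, with or without the replicate block. After silwet its mean was 104 ± 59.8 at 28 h and 55.3 ± 6.18 at 52 h (SD, n = 3), and after SA 98.2 ± 10.3 and 55.1 ± 16.0. The SA groups of the 2 times did not overlap, which held for 2 of 9 members (AT3G28510 the other) and 4.73% of all probe sets. The silwet groups of the 2 times overlapped in all 9, while 5.82% of all probe sets had none. Those of AT4G32870 shared the range from 57.5 to 62.4. Over both treatments the log2 difference was -0.82 (95% interval -1.30 to -0.34). It missed the threshold of limma's test (adjusted p = 0.995, unadjusted p = 0.00243), and its adjusted p ran from 0.159 with the replicate block to 1.00 over the alternative fits. 245035_at had -0.68 (-1.23 to -0.14), AT5G44570 -0.68 (-1.36 to 0.00) and AT1G15790 -0.49 (-0.98 to 0.01). AT4G02220 (-0.04) and AT3G44190 (-0.07) were near 0 with intervals inside 1 on either side.

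AT3G28510 had the lowest fitted value between the later times, -2.30 after SA, but all 3 SA arrays of 52 h were dim. With each value of 52 h set to the filter level of its array and those of 28 h as measured, it was 1.12-fold lower. This is no firm minimum, since SA replicate 1 of 28 h was dim too and no error is attached. With that value in place of the fitted one the median of the 9 after SA was -0.44. In all, 0 of 9 members were called over both treatments, against 0.00657% of all probe sets, and 2 of the 8 other than AT3G28510 (AT4G32870 and 245035_at) were lower at an unadjusted p under 0.05, against 2.03% of all probe sets. AT3G28510 had such a p too, from the fitted value on dim arrays (-1.52). It was -0.45 with the SA values of 52 h at the filter level and the silwet values, partly dim, as measured. With the replicate block AT3G29240 (limma unadjusted p = 0.0198), AT5G44570 (0.00653) and AT1G15790 (0.0478) were also lower at this level. Such a p was then more frequent over all probe sets too, 1451 in place of 447 in either direction. The lower ones were not counted apart with the block, so these members have no share in the same direction beside them. No member was called with the block. In limma 0 members were called in silwet plants (0% of all, 238 at an unadjusted p under 0.05, or 1048 with the block) and 0 in SA plants (0%, 229, or 642 with the block). The silwet median rested much on single arrays, since without replicate 1 of 28 h it was -0.11, without replicate 3 of 28 h -0.32 and without replicate 1 of 52 h -0.29. Without SA replicate 2 of 52 h the SA median was -0.37.

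**Figure D3:**
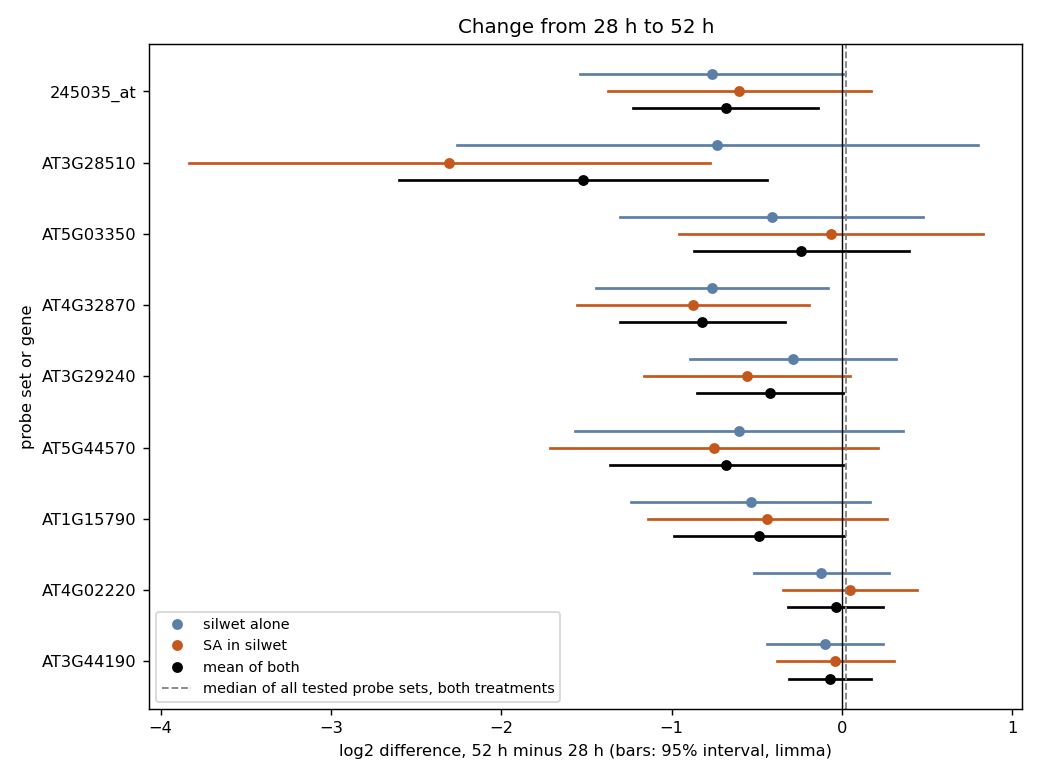
Change from 28 h to 52 h (log2 difference, x axis) for each member in silwet plants, SA plants and their mean, with 95% intervals from limma. The dashed line is the median of all tested probe sets over both treatments, 0.03, the members' median over both is -0.49, and the SA value of AT3G28510 rests on dim arrays.

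The order of the 6 groups was alike in one respect, since SA at 4 h came first for every member with no overlap with the group in the second place. Below it, neighbouring groups overlapped in every case except in AT4G32870, where SA at 28 h lay above silwet at 52 h. In 4 members, AT5G03350, AT3G29240, AT4G02220 and AT3G44190, silwet at 4 h came second. In 245035_at, AT3G28510, AT4G32870 and AT1G15790 silwet at 28 h did, and in AT5G44570 SA at 28 h. Silwet at 4 h was also the group against which the members were chosen, which favours low values there, so its place is given with no test. AT3G29240 had a mean of 818 ± 320.3 after silwet at 4 h and 417 ± 14.0 at 52 h (SD, n = 3).

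The members differed widely in how much they varied between replicates. Over the 12 arrays of 28 h and 52 h, the pooled standard deviation within groups was 0.12 on the log2 scale for AT3G44190, lower than in all but 1.18% of the probe sets of similar signal level (1 of 10 equal bins). For AT4G02220 it was 0.19, with 8.61% of such probe sets at or below it. These 2 members were chosen partly for a test on the same arrays that favours little spread, so this is a description. AT5G03350 (0.63), AT5G44570 (0.66) and the dim AT3G28510 (1.14) were at the other end, with 82.5% to 83.8% of probe sets of their level at or below them. The median over all tested probe sets was 0.39.

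Within groups, single arrays often had most members on the same side of the group mean. On SA replicate 3 of 28 h all 9 members lay above it, with a median deviation of 0.09. Of all probe sets 56.6% did on that array, with a median of 0.06. On silwet replicate 3 of 4 h 8 of 9 did, with a median of 0.40, beside 47.0% of all. On silwet replicate 2 of 28 h and SA replicate 2 of 52 h only 1 of 9 did, with medians of -0.20 and -0.36. Of all probe sets 53.1% and 55.6% did on these. Over all probe sets the median deviation of these 4 arrays was between -0.03 and 0.06. On SA replicate 2 of 4 h 7 of 9 members lay above the mean, beside 54.3% of all probe sets. That array also had the highest 3' over 5' signal ratio of the control genes (mean log2 2.65, against 1.18 to 2.26 on the others), a measure of RNA and labelling quality. Without it the median 4 h difference of the members was 2.27, against 2.26 with it.

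**Figure D4:**
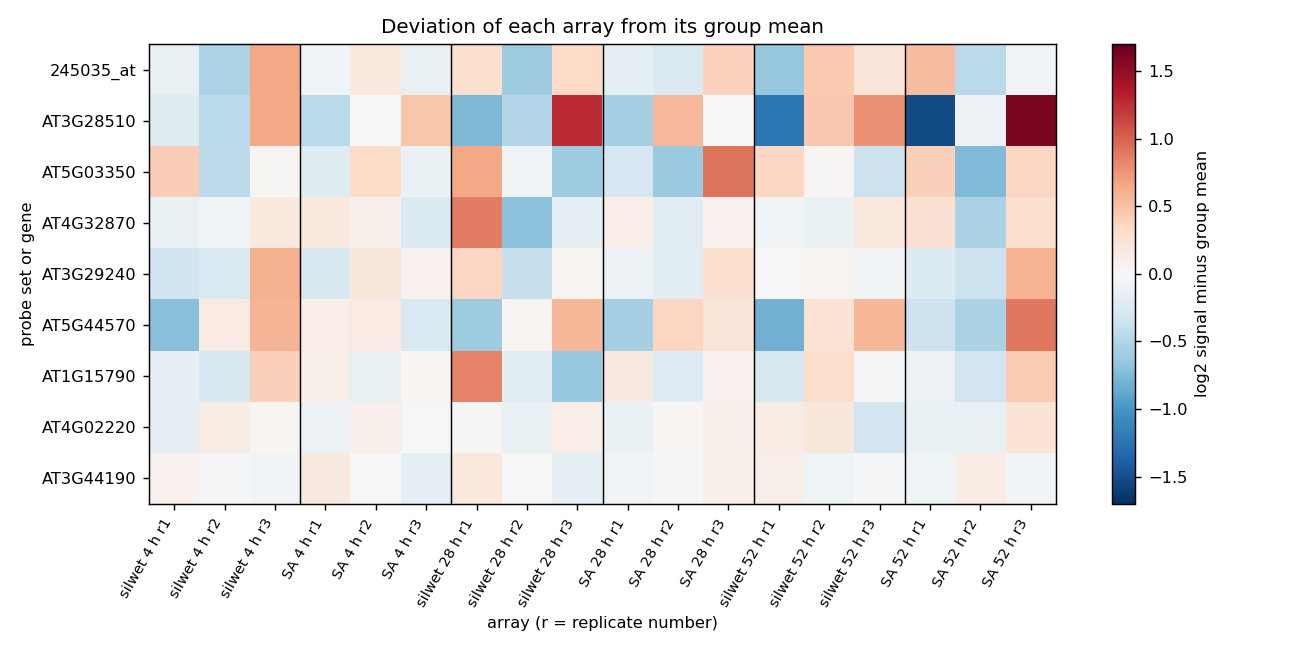
Deviation of each member (rows) on each array (columns) from the mean of its group, in log2 signal, red above and blue below. The column of SA replicate 3 of 28 h is above 0 in all 9 rows, and the rows of AT4G02220 and AT3G44190 stay palest.

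The genes whose course over the 6 groups was closest to the mean of the members were found among 8297 other tested probe sets with 1 annotated gene. Closeness was the root mean square difference between the 6 centred group means and those of the members, so genes with the same early difference are favoured and no test is attached. The closest was AT4G19370 (0.19 log2 units, against a median of 1.11 over the 8297). It had 33.0 ± 21.2 after silwet and 112 ± 39.3 after SA at 4 h (SD, n = 3). It was dim on 1 silwet array of each time and on 2 SA arrays of 52 h. Next came AT3G60540, which encodes a subunit of the Sec61 channel that takes proteins into the endoplasmic reticulum, with 133 ± 12.6 and 429 ± 18.6. The others, at 0.27 to 0.34, were AT5G55420, GH3.3, AT3G62780, AT5G46230, AT4G29520, AT5G52810, AT5G45000 and AT2G39210. GH3.3 joins auxin to amino acids, and AT5G52810 is SARD4, an enzyme on the way to pipecolic acid, an immune signal. GH3.3 varied much between replicates, with 584 ± 372.5 after SA at 4 h, and was not called there. Nor were AT4G19370 (limma adjusted p = 0.0767), AT5G46230 (0.173) and AT2G39210 (0.239), while 6 of the 10 were, beside 0.795% of all probe sets tested. Nothing is read from these calls, because the genes were picked for a course that includes the 4 h difference.

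**Figure D5:**
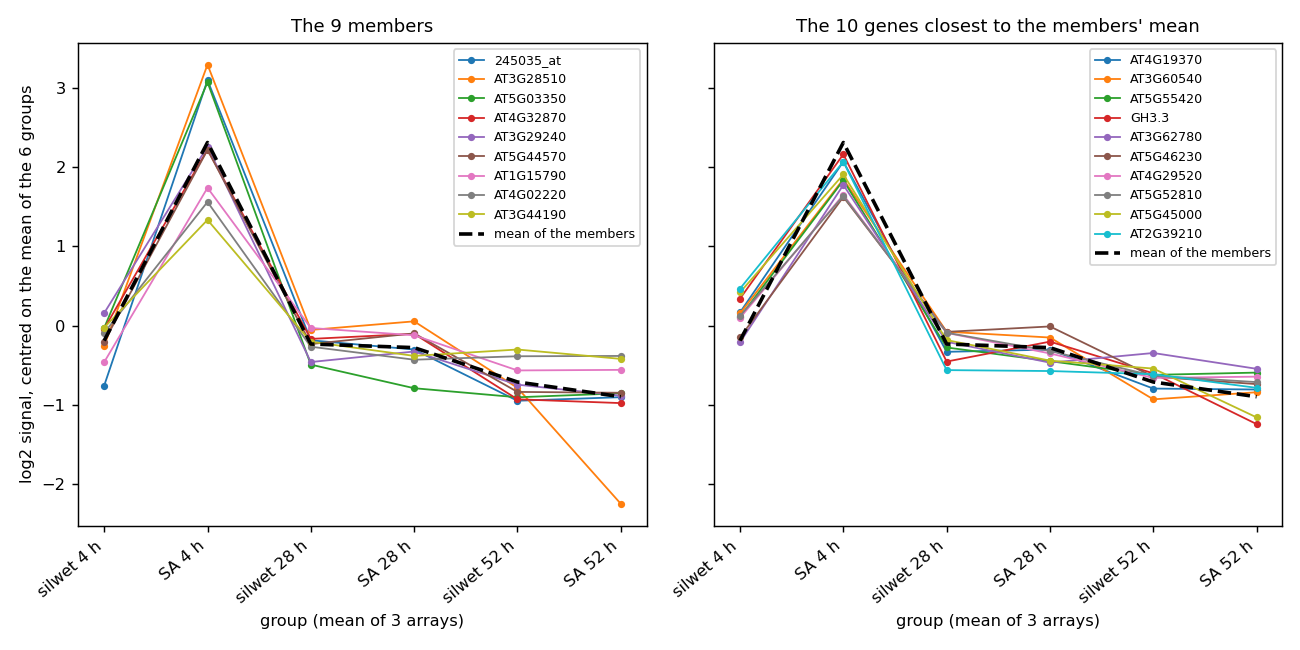
Group means of log2 signal, each centred on the mean of its 6 groups (y axis), by group (x axis), for the 9 members and for the 10 genes nearest to the members' mean, the dashed line. Both sets peak at SA 4 h, and AT3G28510 alone drops far at SA 52 h, where it was dim.

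Genes around the members were followed through the gene table of the reference accession, with 3 on each side. Of these 54 neighbours, 21 had 1 named probe set and 12 were tested. None was called at 4 h by limma, with or without the replicate block, and their median log2 difference was 0.26, against -0.09 over all tested. The highest was AT3G28540, another ATPase gene of the AAA type 3 places from AT3G28510, at 0.95 (SE 0.39, adjusted p = 0.301). The lowest was AT4G32900, near AT4G32870, at -0.41 (adjusted p = 0.492).

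Of 12 genes of methionine recovery and S-adenosylmethionine synthesis, the pathway of ARD3, only ARD4 had a named probe set. At 4 h its signal was 304 ± 92.3 after silwet and 236 ± 105 after SA (SD, n = 3), a log2 difference of -0.40 (SE 0.47) that did not pass limma's test (adjusted p = 0.814). Whether the other genes of that cycle changed was not analysed here. Of 19 known SA response genes 4 could be found by name and were tested, and 2 were called higher at 4 h, UGT76B1 (3.46) and SARD4 (1.52). The others were WRKY53 (1.70, adjusted p = 0.163) and GRX480 (1.43, adjusted p = 0.0997), and all 4 were called with the replicate block. None of the 4 was called at 28 h or 52 h, and their median at 28 h was -0.14. At 52 h the differences of WRKY53, GRX480 and SARD4 were -0.12, 0.09 and -0.08. UGT76B1 was dim on 3 SA and 2 silwet arrays of 52 h (means 13.4 and 15.3), so its difference there is not read.

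Of the 16 markers of tissue and cell types, 3 had a named probe set. RCA, the activase of Rubisco and a gene of green tissue, had group means from 2587 to 3472, and the root gene PYK10 from 78.4 to 201. At 4 h the log2 difference between SA and silwet was -0.19 for RCA, -0.98 for PYK10 (adjusted p = 0.324) and -0.47 for the guard cell gene FMA (adjusted p = 0.391). The part of tissue make-up in the members' 4 h values was not tested. Array medians lay between 26.7 and 35.6, and with 3 arrays to a group the precision of each mean is limited by their number.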

How the data were processed

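RNA of 18 samples was measured on ATH1 arrays. The authors deposited linear intensity values of 22810 probe sets in 1 table, made with MAS5 per the submitters' processing notes. MAS5 settings are not given in the sources used here. Trimmed by 2% at each end, the mean of every array was 100.009 to 100.011, so the arrays were scaled before deposit. MAS5 subtracts background, which leaves dim probe sets noisy, and the table holds no detection calls.

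Values were put on the log2 scale with no offset. A probe set was tested if it exceeded its array's 40th percentile on 3 or more arrays, and 64 control probe sets were left out. The model (limma 3.58.1, R 4.3.3) had 6 group means over all 18 arrays and eBayes with a trend on signal. Adjusted p values are by Benjamini-Hochberg over all 15212 tested, and intervals are 95%. A fold change is 2 to the power of the log2 difference. Figures were drawn with Python 3.11.15 and matplotlib 3.10.9. The model code was tested on simulated data.

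Names came from a platform annotation of 14016 probe sets (13513 with 1 gene, 503 with several), updated through the TAIR10.1 gene table, where 13436 matched. No build is stated for the array, so positions are not given. The loci of 8 members matched the annotation. The text names the members, the 10 genes nearest to their mean, their neighbours and the genes of the lists. The members and lists were chosen with earlier results of these data known. Protein relatives and promoter motifs, which had been planned, were not analysed here.

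Same-numbered arrays deviated together, with correlations across probe sets of 0.16 to 0.82 in all 15 pairs checked. The replicate numbers are those of the labels, which do not say what arrays of 1 number share. A fit with the number as a block is given beside a result where it changed a call or moved a count of calls by over 1.5 times. Counts of all probe sets at an unadjusted p under 0.05 are given both ways. The labels call the replicates biological without saying how the plants were grown, so p values measure only the spread between these samples, which may be technical. The alternatives were quantile normalization, centring on array medians, an offset of 5.55 (the table's 20th percentile), no filter on dim signal, one at the 60th percentile, no trend, fits of the compared arrays alone, the block, and each array left out.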

Additional observations from a re-analysis of the deposited data

How the results depend on the processing

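No member reversed a called direction in any of 1395 refitted values, 1336 kept their side of the threshold, 53 lost a call and 6 gained one, all of these in comparisons that include 4 h. In the comparisons without 4 h arrays, 0 members were called under every alternative, the replicate block included. The replicate block gave 1011 called probe sets at 4 h in place of 121, and 2 in place of 1 between 28 h and 52 h over both treatments. Among the members it added the calls of AT3G28510 and AT5G44570 in the 4 h effect minus the later ones, a contrast that chose members. There 366 of all 15212 probe sets were called in place of 23. The block also added the call of AT3G29240 between silwet at 52 h and at 4 h, where 1148 of all were called in place of 356. The 4 h count was 187 with the filter at the 60th percentile and 11 with only the arrays compared, which called 5 of the 9 members. Median centring took the share of 4 h calls that were higher from 59.5% to 72.5%, and the block to 45.0%. Median centring also gave 0 calls between the later times over both treatments, as did the offset, while the fit without a trend gave 2. Leaving out 1 array gave 15 to 142 calls at 4 h (15 without silwet replicate 2, 17 without silwet replicate 1, 20 without SA replicate 3, 25 without SA replicate 2), 0 to 1 for SA against silwet at 52 h, 0 to 1 in silwet plants between 28 h and 52 h, and 0 to 1 over both treatments. The members' median between the later silwet groups ran from -0.69 to -0.11 with 1 array left out. Such fits have fewer arrays, and the cause of the other changes was not tested. AT3G28510 and AT1G15790 had values at or below the filter level, and every group had only 3 arrays. How far either bears on these changes was not tested.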
